A study of Mus musculus with 3 samples.

Results

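Keratinocytes carrying transcripts of both Krt79 and Krt17, the keratin pair used here to mark the upper hair follicle, numbered 1093 of the 26143 barcodes kept in 3 single-cell RNA libraries of mouse dorsal skin. A barcode was kept with 300 or more detected genes, 500 or more unique molecular identifiers (UMIs, each counting a captured transcript) and at most 10% mitochondrial UMIs. A kept barcode was a member with 5 or more UMIs of Krt79, 5 or more of Krt17, no UMI of Ptprc, the pan-leukocyte gene, and fewer than 3 detected of the 6 sebocyte genes Fa2h, Far2, Awat1, Elovl3, Cidea and Scd3. The libraries came from C57BL/6 mice, for which no treatment or mutant allele is named, with 1 library for each age: neonatal, 3 weeks and 2 months. The series as a whole concerns IL-1 and WNT signalling in dermal adipocyte cells, and the skin was minced and digested with collagenase D and DNase before capture. Neither the number of animals per library nor their sex is stated, and cells of a library are not replicates.

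The upper follicle runs from the skin opening past the sebaceous duct to the junction above the bulge. In mouse skin Krt79 marks the keratinocytes that open the hair canal and line this segment, and Krt17 is a keratin of the follicle and of stressed epidermis that basal interfollicular cells largely lack. Cst6 encodes cystatin M/E, an inhibitor of cysteine proteases in the cornifying layers, and Defb6 encodes a beta-defensin, a small antimicrobial peptide. Cells of this segment meet hair, sebum and microbes, and form a barrier with its own cornified lining.

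The deposited matrices held 84086755 UMIs on 8452 barcodes (neonatal), 113874172 on 10226 (3 weeks) and 98432611 on 10190 (2 months). Filtering kept 7911, 8900 and 9332 barcodes in that order. Between 23 and 31 barcodes were shared by any pair of libraries. With 1 library per age no difference between ages was tested, and age cannot be told apart from animal, sex or library. Levels are UMI counts summed over the cells of a group divided by all UMIs of that group and scaled to a total of 1000000 (CPM), and since counts tag 3' ends they were not divided by transcript length. All intervals are 95% intervals that cover counting error only, exact Poisson for levels, exact Clopper-Pearson for shares.

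The promoter windows of the defining gene Krt79 and of Defb6, the marker that differed most between the ages, are given because the motifs of follicle regulators can be read in them. RefSeq promoter sequences (build GRCm38.p6) were found for 2 of the 4 markers, Krt79 and Defb6, and the 250 bases before each transcription start are printed 5' to 3' on the gene's strand. The Krt79 window lies at chr15:101940325-101940574 on the minus strand. The Defb6 window lies at chr8:19225228-19225477 on the plus strand.
Krt79: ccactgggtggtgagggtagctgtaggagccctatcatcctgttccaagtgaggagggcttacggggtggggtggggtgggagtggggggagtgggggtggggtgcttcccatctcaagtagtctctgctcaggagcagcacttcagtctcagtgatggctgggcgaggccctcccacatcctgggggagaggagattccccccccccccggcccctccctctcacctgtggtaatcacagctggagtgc
Defb6: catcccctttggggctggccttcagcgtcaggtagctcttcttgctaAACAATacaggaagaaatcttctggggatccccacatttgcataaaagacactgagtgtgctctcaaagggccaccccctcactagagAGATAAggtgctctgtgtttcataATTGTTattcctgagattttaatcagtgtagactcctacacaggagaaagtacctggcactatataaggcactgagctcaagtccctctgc
Capitals mark every match to 4 motifs searched on both strands: AGATAA for GATA factors, AACAAT for SOX factors, TGANTCA for AP-1 and TATAAA for the TATA box. No motif overlapped another. The Defb6 window held AGATAA 115 bases before the start, and AACAAT 203 bases before it and, on the reverse strand, 91 bases before it. The Krt79 window held none of the 4. Among all 32851 windows of the same length, 9.988% held AGATAA, 9.424% AACAAT, 6.749% TGANTCA and 12.37% TATAAA. A match describes letters and is not evidence of binding. By the GENCODE vM21 annotation (GRCm38), the gene bodies are Krt79 on chromosome 15 at 101929332 to 101940324 and Krt17 on chromosome 11 at 100256217 to 100261029, in both cases on the minus strand. Defb6 lies on chromosome 8 at 19225478 to 19228209 (plus strand) and Cst6 on chromosome 19 at 5344705 to 5349574 (minus strand).

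Members were 56 neonatal cells, 330 cells at 3 weeks and 707 at 2 months. They made up 0.708% of kept neonatal barcodes (0.535 to 0.918). The share was 3.71% at 3 weeks (3.32 to 4.12), and 2 month members were 7.58% (7.05 to 8.13). As a share of keratinocytes, taking members together with other cells rich in Krt5, Krt14, Krt1 and Krt10, they were 19.7% (15.3 to 24.8), 22.3% (20.2 to 24.5) and 39.2% (37.0 to 41.5). The other cells needed 20 or more UMIs of these 4 keratins, and members did not. Of the members, 3, 118 and 394 held fewer than 20, so the 2 sides were not gated alike and no rise of this share is read. Both kinds of share depend on how skin was dissociated, which was not measured, and fewer cells cannot be told apart from poorer release of cells. Of 62, 337 and 724 cells that passed both keratin thresholds, 2, 6 and 12 were left out for Ptprc and 4, 1 and 5 for sebocyte genes. Median depth was 17885.5 UMIs in neonatal members, 12149 at 3 weeks and 11589 at 2 months, and the members together gave 1552534, 4648405 and 9103538 UMIs.

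The thresholds cut through few cells. Counting by the lower of the Krt79 and Krt17 counts, 10, 17 and 41 members lay just inside at 5 to 9 UMIs, and 3, 19 and 33 cells just outside at 3 or 4. Cells just inside had medians of 6, 16 and 9 Krt79 UMIs and 0, 1 and 2 Cst6 UMIs. Cells just outside had medians of 3, 4 and 4 Krt79 UMIs and 24, 87 and 26 Krt14 UMIs. Members with 10 or more of each numbered 46, 313 and 666, with median Krt79 counts of 123, 113 and 100.

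The 4 markers behaved differently across the ages. Krt79 and Krt17 chose the cells, so their presence is no finding, but their levels describe them. Krt79 had a median of 100 UMIs per neonatal member (10th to 90th percentile 7 to 309.5), 108.5 UMIs per 3 week member (25 to 221.5) and 94 per 2 month member (19 to 219.8). Krt17 had medians of 71.5, 212.5 and 199 UMIs. Summed over members, Krt79 stood at 4477 CPM in the neonatal library, 8465 at 3 weeks and 8415 at 2 months, and Krt17 at 3850, 17537 and 18889 CPM. Neonatal members thus carried less of both keratins per UMI, with the larger gap for Krt17. Krt79 was at no more than 145 CPM in either type of other keratinocyte of any library, and at 1405, 1555 and 1469 CPM in sebocyte-gene cells, which held 3 or more of the 6 sebocyte genes (6, 22 and 39 cells). Neonatal non-member keratinocytes with more Krt5 and Krt14 than Krt1 and Krt10 held Krt17 at 1806 CPM.

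Cst6 and Defb6, which the rule did not use, were abundant in the older members and scarce in the neonatal ones. Cst6 was at 1535 CPM in neonatal members (1474 to 1598), 19612 CPM in 3 week members (19485 to 19740) and 10423 CPM in 2 month members (10357 to 10490). A single neonatal cell held 46.2% of the neonatal Cst6 counts. Defb6 was at 8.37 CPM in neonatal members (4.46 to 14.3), from 13 UMIs in 2 of 56 cells, against 2180 CPM in 3 week members (2138 to 2223) and 1310 CPM in 2 month members (1286 to 1333). After each cell was thinned to 5000 UMIs, leaving out 4, 8 and 28 shallower members, Defb6 was detected in 1.92% of neonatal members (0.0487 to 10.3), 76.7% of 3 week members (71.7 to 81.2) and 73.3% of 2 month members (69.8 to 76.6). Without thinning 3.57%, 81.8% and 80.8% of members had a Defb6 UMI. Cells gated on collagen transcripts in the same libraries, which should lack the gene and had median depths of 9247, 12317 and 10433 UMIs, showed thinned shares of 0.0354%, 0.658% and 0.709%. Cst6 was detected in 32.7%, 82.9% and 87.3% of thinned members, and in 0.195%, 3.31% and 2.96% of collagen-gated cells. At 3 weeks and 2 months most members thus also carried Cst6 and Defb6, the 2 markers of the label that the rule did not use. The members and gene lists were chosen with earlier results of these data known, so this is no independent support for the label. In the neonatal library Cst6 had a UMI in 28 of 56 members and Defb6 was almost absent, so those 56 cells are called here by their rule, as Krt79+ Krt17+ keratinocytes.

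**Figure D1:**
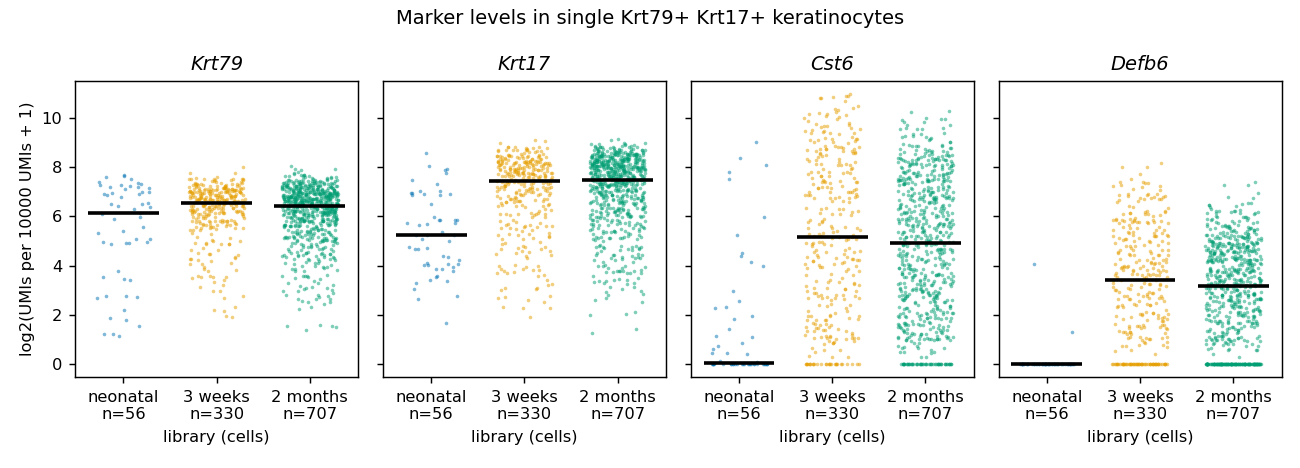
Each point is a member; the vertical axis is log2 of UMIs per 10000 UMIs plus 1 for Krt79, Krt17, Cst6 and Defb6, by library, with black lines at the medians. Cst6 and Defb6 spread from 0 upward at 3 weeks and 2 months, while in the neonatal library 54 of 56 cells lie at 0 for Defb6.

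Most marker pairs had positive Spearman correlations across the cells of a library, which share depth, so that the values are given as description. Krt79 and Krt17 had rho of 0.59 over 56 neonatal members, 0.76 over 330 at 3 weeks and 0.78 over 707 at 2 months. Krt17 and Cst6 had 0.30, 0.62 and 0.74, and Cst6 and Defb6 had 0.28, 0.67 and 0.51. Krt79 and Cst6 had 0.24, 0.44 and 0.50. Defb6 had rho of 0.01 with both Krt79 and Krt17 in neonatal members, where 2 cells carried it, of 0.33 and 0.28 at 3 weeks and of 0.33 and 0.31 at 2 months. Krt17 and Krt14, the basal keratin, had 0.48 in neonatal members, but -0.67 at 3 weeks and -0.50 at 2 months.

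The keratin make-up of the members shifted in the same way. Keratin genes together took 2.40% of neonatal member UMIs, 3.52% at 3 weeks and 3.31% at 2 months. Of these keratin UMIs, Krt17 made up 16.1%, 49.8% and 57.1%, and Krt79 18.7%, 24.0% and 25.5%. Krt10, the keratin of suprabasal epidermis, made up 19.3%, 6.78% and 4.92%, its partner Krt1 15.4%, 0.627% and 0.902%, and Krt14 16.9%, 8.06% and 3.25%. Members without any Krt14 UMI were 5.36% of neonatal members, 34.5% at 3 weeks and 50.1% at 2 months. These shares were not thinned, and neonatal members were deeper (median 17885.5 UMIs, against 12149 and 11589). Summed over cells, the older members were thus dominated by Krt17 and Krt79, while in the neonatal sum 5 keratins each took 15.4% to 19.3%. The neonatal sum pools unlike cells and is not the mix of a single cell. Neonatal members had medians of 1 Krt1 and 3.5 Krt10 UMIs, with 90th percentiles of 431 and 468, beside a median of 74 Krt14 UMIs.

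Members were then divided, after their values had been seen, by their UMIs of Krt5, Krt14, Krt1 and Krt10 together. Those with 20 or more and at least as many of Krt5 and Krt14 as of Krt1 and Krt10 are called Krt14-dominant, those with 20 or more and the reverse Krt10-dominant, and those with fewer than 20 low. The low group held 3 of 56 neonatal members (5.36%), 118 of 330 at 3 weeks (35.8%) and 394 of 707 at 2 months (55.7%). The Krt14-dominant group held 39 (69.6%), 116 (35.2%) and 117 (16.5%). The Krt10-dominant group held 14 (25%), 96 (29.1%) and 196 (27.7%). Median depths of the low group, 8142, 11496.5 and 11340.5 UMIs, lay between those of the other groups at 3 weeks and 2 months. The limit of 20 UMIs was not scaled to depth, and neonatal members as a whole were deeper than the older ones. The part of depth in the low shares was not tested.

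Cst6, Defb6 and Sprr1a were highest in the low group. Of 3041 genes at 50 CPM or more in a group in both older libraries, 6 (0.197%) were at least 2-fold higher in the low group than in each of the other groups at both older ages: Cst6, Defb6, Sprr1a, Prdm1, Cers2 and Gdpd1. Sprr1a encodes a cornified envelope precursor and Prdm1 the transcription factor Blimp1, known in mouse sebaceous and upper follicle epithelium. Cst6 stood at 40842 CPM in low members at 3 weeks, against 11519 in Krt10-dominant and 7425 in Krt14-dominant ones, and at 16819, 4476 and 2882 CPM at 2 months. Defb6 stood at 3773, 1017 and 1825 CPM at 3 weeks and at 1945, 494 and 898 CPM at 2 months, in the same order of groups. Sprr1a stood at 7756, 2990 and 1214 CPM at 3 weeks and at 8266, 2499 and 1508 CPM at 2 months. Prdm1 was at 62.6, 28.5 and 8.93 CPM at 3 weeks and at 89.2, 41.3 and 21.1 CPM at 2 months. The 6 genes were chosen for their 2-fold difference, so the distance of the low group from the others is no separate finding. The other groups were not always apart. For Cers2 at 3 weeks, Krt14-dominant members had 33.8 CPM (25.3 to 44.2) and Krt10-dominant ones 39.9 CPM (30.7 to 51.0). Col1a1, a fibroblast collagen gene, moved with these groups too, at 10805 CPM in low, 5879 in Krt10-dominant and 2581 in Krt14-dominant members at 3 weeks and at 3632, 3339 and 1553 CPM at 2 months. Its part in the differences was not tested. Cst6 and Defb6 themselves were at no more than 17.5 and 2.05 CPM in collagen-gated cells of any library.

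The Krt14-dominant group carried 47 genes (1.55%) at least 2-fold above each of the other groups at both older ages. Krt5 and Krt14, which defined the group, are among the 47. The 47 also included genes of cells attached to the basement membrane. Col17a1, the hemidesmosomal collagen, was at 177 CPM in Krt14-dominant members at 3 weeks against 4.43 in Krt10-dominant and 2.00 in low members, and at 395, 25.7 and 20.1 CPM at 2 months. The integrin Itga6 was at 89.96, 27.9 and 18.6 CPM at 3 weeks and at 159, 58.5 and 47.4 CPM at 2 months. Krt15, a keratin of basal follicle cells, was at 3225, 323 and 177 CPM at 3 weeks and at 3336, 521 and 381 CPM at 2 months. The chemokine Ccl27a was at 445, 22.2 and 37.3 CPM at 3 weeks and at 754, 159 and 117 CPM at 2 months. The BMP and WNT antagonist Sostdc1 was at 365, 155 and 90.6 CPM at 3 weeks and at 375, 120 and 61.5 CPM at 2 months. The ligand Wnt4 was at 80.4, 19.6 and 32.0 CPM at 3 weeks and at 106, 45.4 and 46.1 CPM at 2 months. Krt10-dominant members carried 4 such genes (0.132%). These were Krt1 and Krt10, which defined the group, and Nccrp1 and Slc39a8, a zinc transporter. Gata6, a transcription factor of the mouse sebaceous duct lineage, followed another order, at 99.2 CPM in low, 37.4 in Krt10-dominant and 81.7 in Krt14-dominant members at 3 weeks and at 80.1, 38.35 and 63.9 CPM at 2 months.

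**Figure D2:**
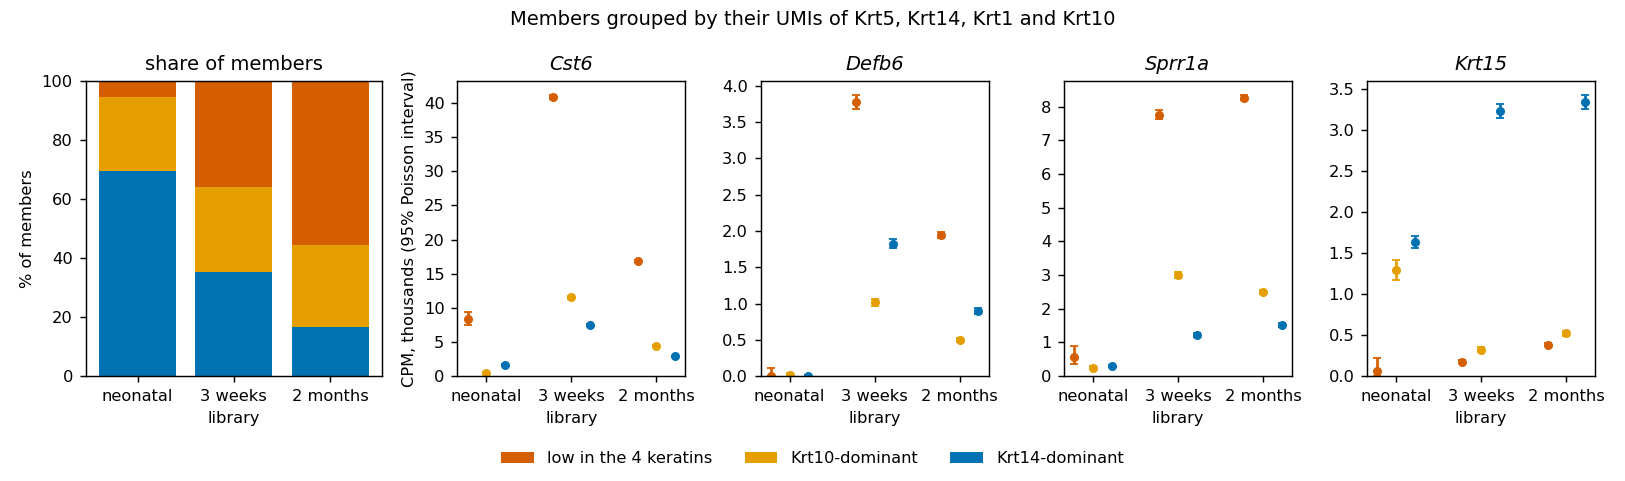
The left panel gives the percentage of members in each keratin-defined group by library, and the other panels give the level (CPM divided by 1000) of Cst6, Defb6, Sprr1a and Krt15 in each group, with 95% Poisson intervals. The low group grows from 5.36% of neonatal members to 55.7% at 2 months and holds the highest Cst6, Defb6 and Sprr1a levels at 3 weeks and 2 months, while Krt15 is highest in the Krt14-dominant group.

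Members were set beside the other keratinocytes of their own library, which numbered 228, 1148 and 1095. These had 20 or more UMIs of Krt5, Krt14, Krt1 and Krt10 together, more of these than of Col1a1, Col1a2 and Col3a1, and were not members. They were split into a Krt14-type (109, 898 and 824 cells) and a Krt10-type (119, 250 and 271 cells). Since transcripts of the same cells chose the members, the differences are descriptive. In the neonatal library 5.41% of measured genes passed 2-fold upward in members and 5.07% downward, at 3 weeks 7.55% and 9.18%, and at 2 months 7.21% and 7.38%. Of 7494 genes measured in all libraries at 10 CPM or more on either side, 124 (1.65%) were at least 2-fold higher in members in every library and 64 (0.854%) at least 2-fold lower.

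Of 14 measured upper follicle genes 8 were higher in every library and none lower (median over genes of the middle of their 3 log2 ratios 2.60, against -0.06 over all 7494). Of the 8, 2 are the genes of the rule, which also enter that median. The others were Cst6, Gata6, Sox9, Klk7, Atp6v1c2 and Nebl. Klk7, a chymotrypsin-like kallikrein that cleaves corneodesmosomes, stood at 503, 1718 and 775 CPM in neonatal, 3 week and 2 month members. It stood at 160, 798 and 558 CPM in Krt10-type and at 8.64, 17.4 and 1.33 CPM in Krt14-type keratinocytes of those libraries. Atp6v1c2, a subunit of the proton pump of acid compartments, was at 53.5, 226 and 162 CPM in members, against 7.37, 76.7 and 95.4 in Krt10-type and 0.393, 3.32 and 5.84 in Krt14-type cells. Members were the highest of the 3 cell groups for both genes in each library, and the Krt10-type cells came nearer than the Krt14-type.

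Several transcription factors were higher in members. Of 33 measured epithelial transcription factors, 5 were higher in every library (Gata6, Sox9, Prdm1, Foxc1 and Ehf) and 1, Tbx1, was lower. Gata6 stood at 30.3, 72.3 and 64.6 CPM in members, against 3.53, 10.2 and 16.1 in Krt14-type and 0, 3.49 and 5.52 in Krt10-type keratinocytes. Foxc1 stood at 60.5, 102 and 86.7 CPM in members, against 10.2, 17.5 and 32.4 in Krt14-type and 0.614, 3.31 and 9.13 in Krt10-type cells. Both genes were higher in members than in either type in each library. Sebocyte-gene cells held Gata6 at 12.1, 8.75 and 16.5 CPM but Foxc1 at 74.8, 32.1 and 73.1 CPM, in the neonatal library above the members. Thinned shares of members with a Gata6 UMI were 23.1%, 29.8% and 28.3%, against 2.65%, 4.48% and 5.50% in collagen-gated cells. Sox9, a regulator of follicle progenitors, was at 670, 289 and 341 CPM in members and at 402, 155 and 204 CPM in Krt14-type cells, a smaller difference. Ehf, an epithelial ETS factor, was at 21.3, 46.0 and 137 CPM in members, at 6.28, 11.8 and 36.4 CPM in Krt14-type and at 13.2, 8.28 and 35.7 CPM in Krt10-type cells. Against Krt10-type cells alone Ehf did not pass 2-fold in every library, and against Krt14-type cells alone Sox9 did not.

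Genes of cornification and growth factor signalling followed. Of 13 cornified envelope genes, 3 were higher in every library and none lower (Sprr1a, Cdsn and Crct1). That count depended on the cells compared. Against Krt14-type cells alone 9 of 12 were higher and none lower, but against Krt10-type cells alone 0 of 14 were higher and 2, Lor and Hrnr, were lower. Sprr1a stood at 296, 3931 and 5229 CPM in members, against 165, 135 and 181 in Krt10-type and 11.4, 8.95 and 16.6 in Krt14-type cells, so that it exceeded both types by more than 10-fold at the older ages. Cdsn, the corneodesmosome protein, stood at 19.97, 247 and 255 CPM in members, but at 0.307, 299 and 309 CPM in Krt10-type cells, which were the higher at the older ages. The lipoxygenase Alox12e was at 74.1, 149 and 195 CPM in members and at 4.91, 126 and 136 CPM in Krt10-type cells, and the gasdermin Gsdma at 113, 215 and 103 CPM and at 39.6, 108 and 75.8 CPM. Of 14 EGF family genes, the ligands Areg and Tgfa were higher and Etv4, a target of the pathway, lower. Areg was at 34.1, 337 and 287 CPM in members, against 23.02, 64.0 and 89.8 in Krt10-type and 4.32, 15.4 and 13.0 in Krt14-type cells. Of 28 WNT genes, only Wnt11 was higher in every library, and Wnt3, Wnt4 and the antagonist Sfrp1 were lower. Wnt11 was at 28.3, 55.1 and 88.4 CPM in members, against 7.07, 9.74 and 19.5 in Krt14-type cells, and Wnt4 at 90.8, 44.1 and 57.7 against 302, 372 and 216 CPM. Wnt11 was detected in 23.1%, 25.5% and 35.8% of thinned members, beside 15.4%, 15.7% and 18.6% of collagen-gated cells.

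Fibroblast transcripts were also higher in members, and 7 of 8 measured fibroblast markers passed 2-fold in every library. The 9 markers of that list summed to 3975, 24472 and 13326 CPM in members, against 638, 1485 and 1101 in other keratinocytes, none being at 0 in either. The other keratinocytes had to hold more keratin than collagen UMIs and the members did not. Of the members, 9, 40 and 68 carried 0.2% or more of their UMIs as collagen transcripts, and with members and other keratinocytes both held below that limit 65 genes were higher in every library, 55 of them among the 124. Col1a1, Col1a2, Col3a1, Lum, Sparc, Mfap4, Col5a1, Col5a2, Col6a1 and Tnfaip6 then no longer were. Cst6, Gata6, Sox9, Klk7, Atp6v1c2 and Nebl, the upper follicle genes that the rule did not use, all stayed higher under the limit. Krt79 and Krt17 did too, but they chose the members, so this is no finding. The part of fibroblast transcripts in the other differences was not tested. Summed CPM in members was 3.22, 0.861 and 1.32 for 5 endothelial genes, with Cdh5, Emcn and Cldn5 at 0 in the neonatal and 3 week libraries. For 7 immune genes it was 3.86, 104 and 29.5, with Ptprc at 0 by the rule, and for 4 melanocyte genes 109, 2.80 and 12.4. For 5 mural genes it was 18.7, 108 and 26.5, for 4 Schwann cell genes 29.0, 87.1 and 79.7, for 3 Langerhans cell genes 21.9, 34.2 and 13.7 and for 4 Merkel cell genes 2.58, 1.08 and 0.769, with Atoh1 at 0. In the 3 week library a single member held 95.9% of the Cd74 counts, and in the neonatal one a single member held 60.3% of the Dct counts.

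**Figure D3:**
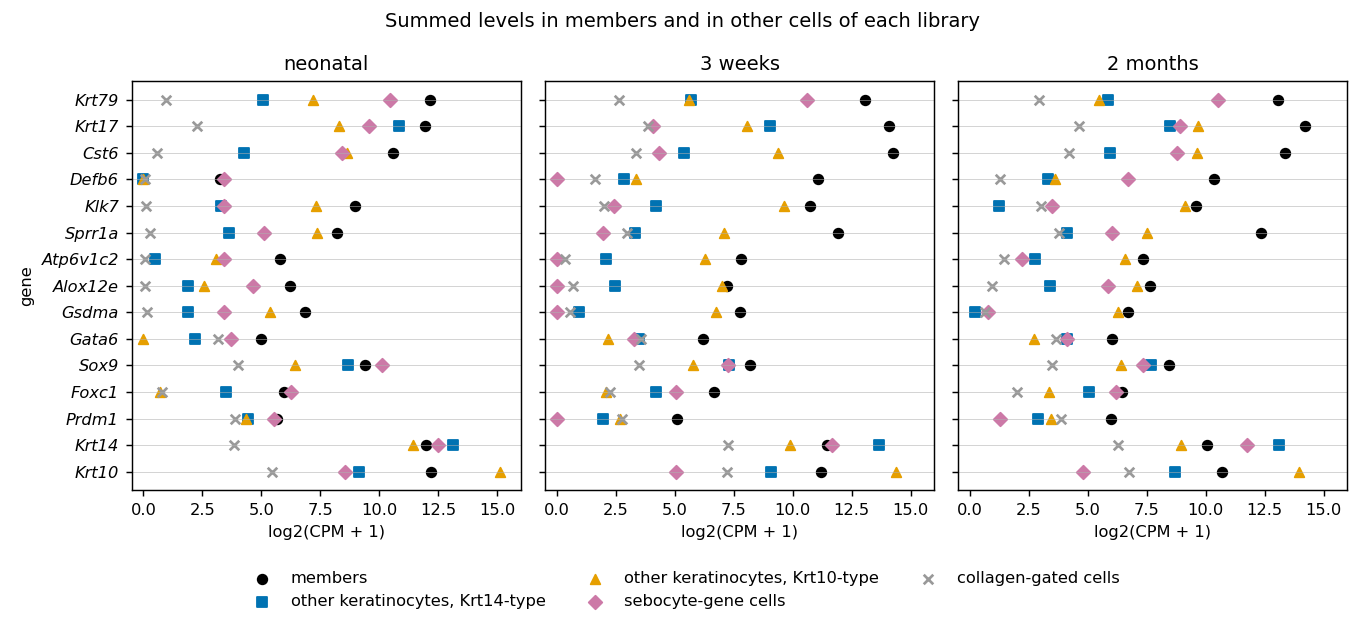
Points give log2 of CPM plus 1 of 15 genes summed over members, Krt14-type and Krt10-type other keratinocytes, sebocyte-gene cells and collagen-gated cells, with a panel for each library. Members lead for Krt79, Krt17, Cst6, Klk7, Sprr1a, Atp6v1c2 and Gata6 in each library, while Krt10 is highest in Krt10-type cells.

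Of 8472 genes at 10 CPM or more in either, 995 (11.7%) were at least 2-fold higher at 3 weeks and 954 (11.3%) at least 2-fold lower (23% in all), with a median log2 ratio of -0.06 over all 8472. That split depended on scaling. Leaving mitochondrial, ribosomal protein and haemoglobin genes out of the totals gave 843 higher and 1644 lower (median -0.29), and TMM scaling gave 1197 higher and 749 lower (median 0.09). The comparison rests on 56 neonatal cells, so that genes held by few cells are named as such. Markers of other cells were higher at 3 weeks too: 6 of 9 fibroblast genes, with 1 lower (median log2 ratio 1.64), all 4 measured mural genes (3.48) and all 4 haemoglobin genes (6.98). Their part in the differences given here was not tested.

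Among the genes furthest above their neonatal level at 3 weeks were genes of differentiation and defence. Defb6 was 8.02 higher on the log2 scale (7.25 to 8.93). Dapl1, a gene of differentiating epithelium, stood at 1315 CPM in 3 week members, against 10.9 in neonatal members (log2 ratio 6.91, 6.23 to 7.69), and in 75.5% against 3.85% of thinned members. Pdzk1ip1 stood at 466 against 7.73 CPM (5.91), Susd2 at 283 against 7.09 CPM (5.32) and Skint9 at 231 against 3.86 CPM (5.90), with Skint10, its near copy, at 73.1 against 0.644 CPM. Skint genes encode immunoglobulin-like surface proteins of mouse keratinocytes, and reads of such copies may be split between them. Pglyrp4, a peptidoglycan-binding antimicrobial protein, was at 60.2 CPM at 3 weeks and had no UMI in neonatal members, a difference of at least 4.96 on the log2 scale with 3 counts as the floor. H2-Q7 and H2-Q6, near copies of a class I gene, were at 147 against 0.644 CPM and at 44.7 against 0 CPM. Krt10-type keratinocytes carried several of these genes too, and at 3 weeks Dapl1 was at 1555, Pdzk1ip1 at 452 and Susd2 at 348 CPM.

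Among the genes furthest below their neonatal level were stefins and connexins. The stefin gene BC100530 was at 0.43 CPM in 3 week members, against 2281 CPM in neonatal members (log2 ratio -12.37, -15.42 to -10.52), Stfa1 at 1.08 against 530 CPM (-8.94) and Stfa3 at 10.8 against 1514 CPM (-7.14). Stefins inhibit cathepsins, and the members of this mouse cluster are near copies whose reads may be split. The gap connexins Gjb6 and Gjb2 were at 0.215 against 59.9 CPM (-8.12) and at 1.51 against 119 CPM (-6.30). Hsd17b2, a steroid dehydrogenase, was at 0.215 against 60.5 CPM (-8.14), seen in 20 of 56 neonatal members. Serpinb12, a protease inhibitor, was at 0.215 against 49.0 CPM (-7.83), but only 5 of 56 neonatal members held it, with 44.7% of its counts in a single cell. The stefin Stfa2 was at 0 against 30.3 CPM, held by 7 of 56 neonatal members, with 29.8% of its counts in a single cell. Ptgds and Krt75, a companion layer keratin, had no UMI at 3 weeks but their neonatal counts lay in 2 cells and in 1 cell, and no change of them is read. In Krt10-type keratinocytes BC100530 showed the same order, at 30.0 CPM at 3 weeks and 12987 CPM in the neonatal library.

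By gene list, the cornified envelope genes and the class I antigen presentation genes were mostly higher at 3 weeks. Of 14 measured envelope genes 12 were higher and 1 lower (median log2 ratio 2.45). Sprr1a stood at 3931 against 296 CPM (3.73), Ivl, encoding involucrin, at 203 against 11.6 CPM (4.13) and Scel, encoding sciellin, at 277 against 70.2 CPM (1.98). Lor, encoding loricrin, stood at 548 against 7.09 CPM but in few cells, 51 of 330 members, with 33.1% of its counts in a single cell. Of 18 measured interferon and antigen presentation genes 15 were higher and none lower (1.67). H2-K1, a class I heavy chain, stood at 1262 CPM at 3 weeks, against 67.6 CPM in neonatal members (4.22, 3.94 to 4.51), and in 98.4% against 32.7% of thinned members. Its light chain B2m was at 970 against 90.2 CPM (3.43) and the peptide transporter Tap2 at 46.7 against 3.86 CPM (3.59). H2-K1 was also higher at 3 weeks in Krt14-type keratinocytes, at 1226 against 40.8 CPM. At a 3-fold threshold 9 of the 18 were higher.

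Upper follicle genes, proteases and barrier lipid genes followed the same direction. Of 16 upper follicle genes 10 were higher and 1, Sox9, lower (1.51). Both genes of the rule are among the 16, and Krt17 is among the 10. Plet1, a surface protein of the junctional zone, was at 618 against 278 CPM (1.16), and Lrig1, a receptor inhibitor of upper follicle stem cells, at 44.3 against 49.0 CPM (-0.14, -0.53 to 0.26), with its thinned share of members, 15.5%, below the 16.2% of collagen-gated cells. Of 25 proteases and inhibitors 13 were higher and 3 lower (1.01), among them Klk5 at 330 against 72.8 CPM (2.18), Klk7 (1.77) and their inhibitor Spink5 at 357 against 55.4 CPM (2.69). With at most 5% mitochondrial UMIs, or thinned to 5000 UMIs, 8 of 25 were higher. Of 20 barrier lipid genes 11 were higher and 1 lower (1.05). The fatty acid elongase Elovl4 was at 567 against 234 CPM (1.27) and the ceramidase Acer1 at 142 against 38.6 CPM (1.88), while the carrier Fabp5 was lower, at 786 against 2036 CPM (-1.37). Under those same settings 6 barrier lipid genes were higher, and 3 in members with more Krt1 and Krt10 than Krt5 and Krt14 UMIs. Of 23 redox genes 9 were higher and none lower (0.29), with Gstm1 at 284 against 21.9 CPM and Aldh3a1 at 118 against 3.22 CPM (5.19). They were detected in 68.6% and 34.5% of thinned members at 3 weeks, beside 58.5% and 22.1% of collagen-gated cells. Of 16 EGF family genes 4 were higher (Areg, Ereg, Btc and Egfr) and 2 lower (0.18). Areg was at 337 against 34.1 CPM (3.30).

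Genes of proliferation, hedgehog and WNT signalling were mostly lower at 3 weeks or within 2-fold. Of 22 cell cycle genes 11 were lower and none higher (-1.11), with Mki67 at 7.96 against 23.8 CPM (-1.58) and the centromere histone Cenpa at 11.2 against 56.7 CPM (-2.34). At 3 weeks both were in 2.48% of thinned members, under the 4.93% and 4.91% of collagen-gated cells. With the thresholds at 3 UMIs of Krt79 and Krt17 only 5 of 22 were lower. Of 7 hedgehog genes 5 were lower (-2.05). The target Gli1 was at 4.30 against 46.4 CPM (-3.43) and the receptor Ptch1 at 15.1 against 67.0 CPM (-2.15). Thinned shares of members at 3 weeks and in the neonatal library were 0.311% and 5.77% for Gli1 and 4.97% and 19.2% for Ptch1. Collagen-gated cells had 6.56% and 28.4% for Gli1 and 10.6% and 38.8% for Ptch1, so that both genes were detected less often in members than in collagen-gated cells. The part of free RNA in these values was not tested. With at most 5% mitochondrial UMIs 2 of 4 measured hedgehog genes were lower. Of 29 WNT genes 9 were lower and 1, Dkkl1, higher (-0.63). Lef1, a transcription factor of the pathway, was at 0.861 against 20.6 CPM (-4.58), Wnt6 at 3.44 against 41.2 CPM (-3.58) and Wnt4 at 44.1 against 90.8 CPM (-1.04). Lef1 and Wnt6 were in 7.69% and 5.77% of thinned neonatal members, under the 17.6% and 12.7% of collagen-gated cells. Wnt4 was in 26.9% of neonatal members beside 8.03% of collagen-gated cells. Without mitochondrial, ribosomal protein and haemoglobin genes in the totals 15 of 35 WNT genes were lower. Among 5 measured companion and stress keratins 4 were lower, of which Krt75 rests on a single neonatal cell, and Krt23 was higher, at 175 against 17.4 CPM (3.33). The lower ones included Krt16 at 22.6 against 679 CPM (-4.91) and Krt7 at 3.66 against 105 CPM (-4.84). Of 1054 neonatal Krt16 UMIs, 930 lay in the 14 Krt10-dominant members. The fetal RNA-binding proteins Igf2bp1 and Igf2bp2 were at 0.215 against 25.1 CPM and at 2.58 against 41.9 CPM. The homeobox gene Irx4 was at 4.95 against 82.4 CPM (-4.06).

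**Figure D4:**
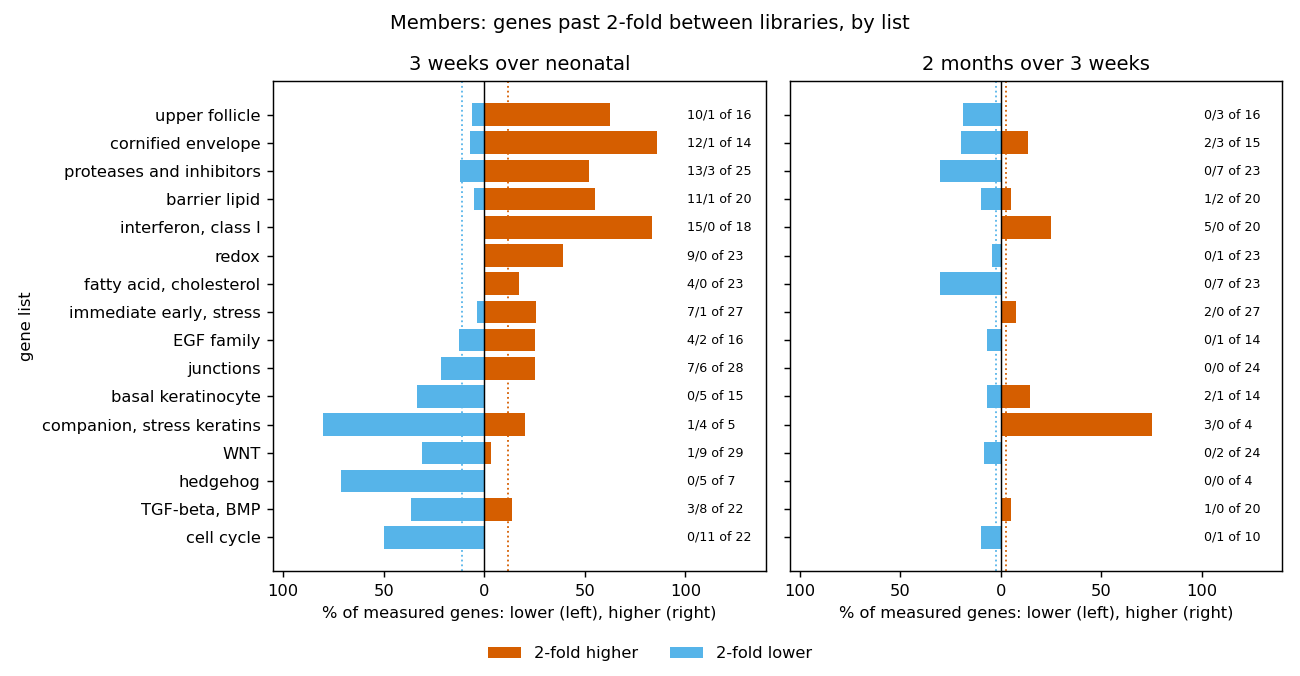
Bars give the percentage of measured genes in each list that were at least 2-fold higher (right) or lower (left) in members, for 3 weeks over neonatal and for 2 months over 3 weeks, with counts as higher/lower of measured. Dotted lines give the percentages over all measured genes; cornified envelope (12 of 14) and class I genes (15 of 18) lie far to the right at 3 weeks, and at 2 months proteases and inhibitors (7 of 23) and fatty acid and cholesterol genes (7 of 23) lie to the left.

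Fewer genes passed 2-fold between 2 months and 3 weeks. Of 7981 measured genes 199 (2.49%) were at least 2-fold higher at 2 months and 199 (2.49%) lower, 4.99% in all, with a median log2 ratio of 0.09. None of the 16 upper follicle genes was higher and 3 were lower. Markers of other cells were lower at 2 months: 4 of 9 fibroblast genes (-0.86), all 4 measured mural genes (-2.00) and all 4 haemoglobin genes (-1.40), and their part was not tested. The split moved to 170 higher and 295 lower with predicted doublets removed, and to 409 and 206 in members with more Krt1 and Krt10 than Krt5 and Krt14 UMIs.

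Kallikreins stood out among the lower genes. Of 23 proteases and inhibitors 7 were lower at 2 months and none higher (-0.43). Klk8 stood at 33.7 CPM at 2 months, against 312 CPM at 3 weeks (-3.21, -3.39 to -3.03), and in 11.8% against 64.9% of thinned members. Klk6 was at 12.4 against 117 CPM (-3.24) and Klk7 at 775 against 1718 CPM (-1.15, -1.19 to -1.10), in 60.1% against 89.4% of thinned members. Klk5 differed less, at 244 against 330 CPM (-0.44), and Spink5 ran the other way, at 565 against 357 CPM (0.66). Klk10 was at 0.989 against 396 CPM, but a single 3 week cell held 60.5% of its counts, and its thinned shares were 0.295% and 12.1%. Casp14, the caspase of cornification, was at 21.5 against 170 CPM (-2.98), and in 4.27% against 32.3% of thinned members. Lower as well were Chil1, a chitinase-like protein, at 2.20 against 26.5 CPM (-3.59), Sgpp2, a sphingosine phosphatase, at 0.11 against 10.3 CPM (-6.55), and the transcription cofactor Eya2 at 1.10 against 15.3 CPM (-3.80). In Krt10-type keratinocytes Klk8 stood at 174 against 488 CPM and Klk7 at 558 against 798 CPM.

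Genes of cholesterol and fatty acid synthesis were lower at 2 months as well, 7 of 23 and none higher (-0.63). Fdps, which makes farnesyl diphosphate, stood at 114 against 343 CPM (-1.58), and Idi1, an isoprenoid isomerase, at 43.0 against 130 CPM (-1.59). The desaturase Scd2 stood at 10.98 against 74.6 CPM (-2.76), but was in 4.57% against 23.9% of thinned members beside 19.6% against 47.5% of collagen-gated cells. For Fdps, Krt14-type keratinocytes also had less at 2 months, 57.0 against 137 CPM, and collagen-gated cells a thinned share of 8.82% against 25.5%.

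Few genes were higher at 2 months. Best2, encoding a bestrophin chloride channel, stood at 30.8 against 4.09 CPM (2.91, 2.24 to 3.67), in 188 of 707 against 16 of 330 members, and at no more than 2.76 CPM in either type of other keratinocyte in any library. The companion and stress keratins Krt16, Krt7 and Krt6a stood at 105 against 22.6 CPM (2.22), 21.9 against 3.66 CPM (2.58) and 14.6 against 0.861 CPM (4.09), 3 of 4 measured in that list and all still below their neonatal levels of 679, 105 and 67.6 CPM. These neonatal levels rest on few cells for Krt6a and Krt16. Krt6a had a UMI in 15 of 56 neonatal members, with 44 of its 105 UMIs in a single cell. Of 1054 neonatal Krt16 UMIs, 930 lay in the 14 Krt10-dominant members. Krt6a and Krt16 have close relatives, so that their reads may be shared. Ehf stood at 137 against 46.0 CPM (1.57), in 48.6% against 18.0% of thinned members. S100a9, an antimicrobial calcium-binding protein, was at 40.4 against 5.81 CPM (2.80), in 80 of 707 against 9 of 330 members, and its partner S100a8 at 11.1 against 0.645 CPM (4.10). Hrnr, the filaggrin-like hornerin, was at 30.3 against 3.23 CPM (3.23), and 2300005B03Rik, of no role given here, at 36.1 against 6.67 CPM (2.44). Of 20 interferon and antigen presentation genes 5 were higher and none lower (0.43), among them Psmb9 at 45.0 against 21.9 CPM (1.04) and Nlrc5, the class I transactivator, at 30.4 against 11.4 CPM (1.42). H2-Q6, a near copy of H2-Q7, was at 197 against 44.7 CPM (2.14).

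Of the IL-1 family, 9 genes were measured in members at either comparison. At 3 weeks 2 were higher than in the neonatal library and none lower, and at 2 months none passed 2-fold. For comparison, 11.7% of the 8472 genes measured between neonatal and 3 week members passed 2-fold upward and 11.3% downward. Between 3 weeks and 2 months it was 2.49% of 7981 genes in each direction. With 9 genes the IL-1 family cannot be set apart from these shares, and no change of the family is read. Il1f5, encoding the interleukin-36 receptor antagonist, was at 46.4, 113 and 93.6 CPM across the 3 ages. The decoy receptor Il1r2 was at 7.09, 31.4 and 52.4 CPM, but its thinned share of members, 3.85%, 4.97% and 7.07%, lay near or below the 2.76%, 47.4% and 77.0% of collagen-gated cells. Il1a and Il1b stayed at or under 2.58 CPM in each library. The inhibitor Nfkbia, a target of NF-kB, was at 2424, 5323 and 7403 CPM. Over 19 NF-kB response genes 2 were higher and 4 lower at 3 weeks (-0.01), and 3 higher and 1 lower at 2 months (0.39). These NF-kB counts were not tested against the shares of all genes given above. Transcripts of both sexes were present in the neonatal members, with Xist at 602 CPM and Ddx3y at 30.9 CPM, while Xist had no UMI in the older members, whose Ddx3y stood at 64.5 and 79.7 CPM.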

How the data were processed

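Gene by barcode matrices were deposited for 3 libraries of dorsal skin, made by droplet capture with a 3' kit and sequenced on a NovaSeq instrument per the labels' protocols. The values are raw UMI counts, deposited without normalization, on 27998 genes per matrix; the submitters' processing notes name Cell Ranger 3.0.2, Seurat 2.0 and mm10, with no roles. How the authors chose barcodes is not given in the sources used here.

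Rows sharing a symbol were summed (27933 symbols). Counts were summed over cells with Python 3.11.15, numpy 2.4.6, scipy 1.17.1 and pandas 2.3.3, and ratios have exact conditional binomial intervals. A gene counted as measured where either library of a comparison reached 10 CPM and called at 2-fold. A count of 0 was set to a floor of 3. No p-value is given, since each age has 1 library. Doublets were kept, and removed as an alternative with Scrublet (scanpy 1.11.5, expected rate 0.06); its threshold marked 0.0253% of neonatal barcodes, so the 475 highest scores were removed there, and 210 and 348 in the older libraries. TMM factors came from edgeR 4.0.16 in R 4.3.3. Cells were thinned to 5000 UMIs for shares. Alternatives changed the UMI thresholds, mitochondrial limit, doublets, sebocyte genes, thinning, scaling, CPM filter, fold and type of other keratinocyte; a collagen limit on both cell groups, runs without the largest member and the settings of the keratin groups were added after seeing the data. The interval code was checked on simulated counts.

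The members and the 38 gene lists were chosen with earlier results of these data known. Genes named between ages are the 10 with the largest and the 10 with the smallest ratio, ranked by the interval bound nearest 0. Mitochondrial, ribosomal protein and haemoglobin genes were left out of that ranking, as were genes below their level in collagen-gated cells (337 higher and 384 lower at 3 weeks, 82 and 97 at 2 months). Against other keratinocytes they are the 20 genes with the largest lowest ratio and 50 CPM or more. Up to 4 genes per list by ratio and 4 by level, and the markers, complete the rule; other genes were named after their values were seen. The groups by keratin UMIs were also set after seeing the data.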

Additional observations from a re-analysis of the deposited data

Results flagged for a closer look

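Members were compared with the other keratinocytes of the same library, and 9 genes were at least 2-fold higher in members of one library and at least 2-fold lower in members of another. With 1 library per age the difference between libraries was not tested. The other keratinocytes pooled both types. Krt10-type cells were 119 of 228 in the neonatal library, 250 of 1148 at 3 weeks and 271 of 1095 at 2 months. Neonatal Krt16 was at 325 CPM in Krt14-type and 2266 CPM in Krt10-type cells. Krt77 at 2 months was at 69.9 and 7335 CPM in that order, so members lay between the types in both cases. The part of this mix in the signs was not tested. Log2 ratios below are members over other keratinocytes. Krt77, a keratin of differentiated epidermis, had 3.02 in the neonatal library (195 against 23.9 CPM) and -1.11 at 2 months (1020 against 2207 CPM). Krt16 had 2.79 at 2 months (105 against 15.2 CPM) and -1.06 in the neonatal library (679 against 1414 CPM). Casp14 had 1.92 at 3 weeks (170 against 45.1 CPM) and -1.73 in the neonatal library (42.5 against 141 CPM). Sostdc1 had 1.17 in the neonatal library (169 against 75.1 CPM) and -1.001 at 2 months (141 against 282 CPM). The regulators Id2 and Maf had 1.11 and 1.07 in the neonatal library and -1.29 and -1.20 at 2 months. Ly6d, a surface protein of differentiating keratinocytes, had 1.004 at 2 months and -1.17 in the neonatal library. Dkkl1 had 1.11 at 2 months and -2.06 in the neonatal library, where a single cell held 78.9% of its counts. Flg, encoding filaggrin, had 3.14 at 3 weeks and -1.51 in the neonatal library, and single cells held 65.1% and 84.2% of its counts.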

How the results depend on the processing

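With 1 library per age no replicate could be left out, and no paired analysis was possible because the groups share no replicate beyond that library. Member shares of 3.71% and 7.58% at 3 weeks and 2 months became 4.16% and 8.27% at most 5% mitochondrial UMIs, 3.26% and 6.85% with collagen-rich members removed, and at 2 months 9.995% after thinning to 5000 UMIs. The share of low members became 27.6% and 41.9% under 10 UMIs. For 3 weeks over neonatal, genes higher and lower numbered 1671 and 2076 with no CPM filter, 390 and 247 at 50 CPM, and 503 and 435 at 3-fold, and 1644 were lower without mitochondrial, ribosomal and haemoglobin genes. For 2 months over 3 weeks they numbered 882 and 892, 49 and 71, and 59 and 71, and 409 were higher in Krt10-type members. Genes higher and lower than other keratinocytes in every library numbered 247 and 225 against Krt14-type and 302 and 113 against Krt10-type cells alone. As a mean of CPM per cell 136 were lower, and with both sides below 0.2% collagen UMIs 65 were higher. In that last setting, added after seeing the data, the lowest log2 ratio of the 3 libraries reversed for Col1a1 (-0.46), Col1a2 (-0.046), Lum (-0.058), Col3a1 (-0.29), Mfap4 (-0.37), Sparc (-1.17), Col5a2 (-0.27), Col5a1 (-0.12), Col6a1 (-0.51) and Tnfaip6 (-0.10). Klk8 at 3 weeks over neonatal was 1.11 and reversed to -0.25 in Krt10-type members. The causes were not tested. Of the other values of named genes, 1519 stayed within a set limit and 356 moved past it, and no other log2 ratio changed sign. The limit was the counting interval, or a fixed log2 distance for members over other keratinocytes. The 3-fold, 50 CPM and no CPM filter settings cannot move a ratio, and each gave 109 of the 1519. Ratios between ages moved most within a keratin type. In Krt10-type members 65 moved and 42 stayed, and in Krt14-type members 50 moved and 58 stayed. For 3 weeks over neonatal, 573 of 995 higher and 399 of 954 lower genes were also called in Krt10-type members. In Krt14-type members 865 and 746 were.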

Other observations

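Haemoglobin transcripts summed over 4 genes to 26.4 CPM in neonatal members, 3333 at 3 weeks and 1275 at 2 months, beside 143, 3610 and 477 CPM in other keratinocytes. Wfdc21, a whey acidic protein gene of keratinocytes, was at 25.7 CPM in 2 month members with 84.6% of its counts in a single cell. The largest members held 175211, 102708 and 85831 UMIs, and 3, 16 and 54 members were marked as doublets.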
